A study of Homo sapiens with 15 samples.

Results

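The comparison was between H196 tumor cells cultured with MRC5 fibroblasts (H196_Co) and H196 cells cultured alone (H196_Mo), with 3 libraries in each group, which are 6 of the 15 libraries of the study. NCI-H196 is a small cell lung cancer (SCLC) line of the non-neuroendocrine (non-NE) type, and MRC5 is a line of normal human lung fibroblasts that serves as a model of cancer-associated fibroblasts (CAFs). The partner cells were separated by a porous transwell insert, so that soluble factors and medium were shared but cells were not, and RNA was extracted after a week. The labels name no drug, transgene or other treatment in any of these groups. H196 is the only tumor line sequenced, so the values describe this line, and co-culture wells differ from mono-culture wells in the number of cells that share the medium as well as in the presence of fibroblasts. SCLC lines and MRC5 were kept in different media, and the medium of the co-culture was not given in the sources used here, so that an effect of the medium and an effect of the partner cells cannot be told apart. All genes of the H196 table were taken, 16076 in number, of which 12806 passed a filter on low counts and were tested. The labels do not say whether the 3 libraries of a group came from separate cultures, so the p-values measure the spread between these libraries, which may be technical.

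As background, cells that take up more glucose than they oxidize convert it to pyruvate through the glycolytic enzymes and release it as lactate through monocarboxylate transporters. Many of these enzymes are targets of the hypoxia-inducible factors (HIFs), whose alpha subunits are hydroxylated by oxygen-dependent prolyl hydroxylases and then degraded, and which bind a short element around ACGTG or GCGTG once they accumulate. Lipid and cholesterol synthesis is under another control, the sterol regulatory element-binding proteins (SREBPs), and shortage of amino acids or stress of the endoplasmic reticulum (ER) raises the translation of the transcription factor ATF4.

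The H196 identity was checked first. Among the regulators that name SCLC subtypes, NEUROD1 and POU2F3 had at most 4 counts in any library and were not tested, and YAP1, the regulator of the non-NE YAP1 type, had 216, 189 and 193 CPM in H196_Mo and 163, 181 and 168 CPM in H196_Co (CPM, counts scaled to library size and TMM factors; log2 fold change -0.22 ± 0.07, adjusted p = 0.0346). YAP1 was thus present in both groups, somewhat lower in H196_Co and inside the fold limit used below. All 10 markers of non-NE SCLC were tested, and their summed level was 6463 to 6949 CPM in H196_Mo and 7019 to 7310 CPM in H196_Co. Of the 14 fibroblast markers, 13 were listed and 5 of these had at most 3 counts in every library; the summed level was 81.2 to 85.7 CPM in H196_Mo and 91.5 to 96.0 CPM in H196_Co, and none of the 4 that could be tested passed the limits given below. The summed level of the 3 listed immune markers was at most 1.13 CPM and that of the 2 listed endothelial markers at most 0.357 CPM. Unlike the CPM of YAP1, the summed levels in this paragraph are without TMM factors. RNA from the fibroblasts was traced with 142 genes that had at least 20 CPM in every MRC5_Mo and MRC5_coH196 library and under 0.5 CPM in every H196_Mo library. Their summed level was 0.0375% to 0.0416% of that in MRC5_coH196 in the H196_Mo libraries and 0.0477% to 0.0525% in the H196_Co libraries. Because the genes were chosen as low in H196_Mo, the higher share in H196_Co is no result. None of the 142 genes passed the filter on low counts. At the highest of these shares, MRC5 RNA would give 1.35 CPM of NDRG1 and at most 0.591 CPM of each of the other 9 genes with the largest rises, against gains, without TMM factors, of 10.7 CPM in NDRG1 and 12.4 CPM or more in the others.

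A limited part of the genes tested differed between H196_Co and H196_Mo beyond both limits given next, and most of these were higher in H196_Co. With a Benjamini-Hochberg adjusted p under 0.05 in edgeR's quasi-likelihood test and an absolute log2 fold change above 0.58, 494 genes were differentially expressed (DEGs), 417 upregulated (3.26% of the 12806 genes tested) and 77 downregulated (0.601%). Without the limit on the fold change, 1542 genes (12%) were higher and 996 (7.78%) lower at an adjusted p under 0.05, so genes with small changes were more evenly divided. The median log2 fold change over all genes tested was -0.0015. For 4768 genes (37.2%) the values of the groups did not overlap. The first principal component held 51.9% of the variance and separated H196_Co (13.8 to 18.5) from H196_Mo (-20.8 to -12.4), and the second, with 15.3%, separated libraries within the groups. When only DEGs with non-overlapping groups that averaged 10 CPM or more were kept, 161 higher and 35 lower remained, and the genes named below as the largest rises and falls come from these. The share of DEGs that were upregulated was 84.4% here and 73.4% when limma was run on log2(FPKM + 0.1), which gave 306 genes higher and 111 lower. As these are bulk libraries, a change in all cells and a change in the share of cells that express a gene cannot be told apart.

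**Figure D1:**
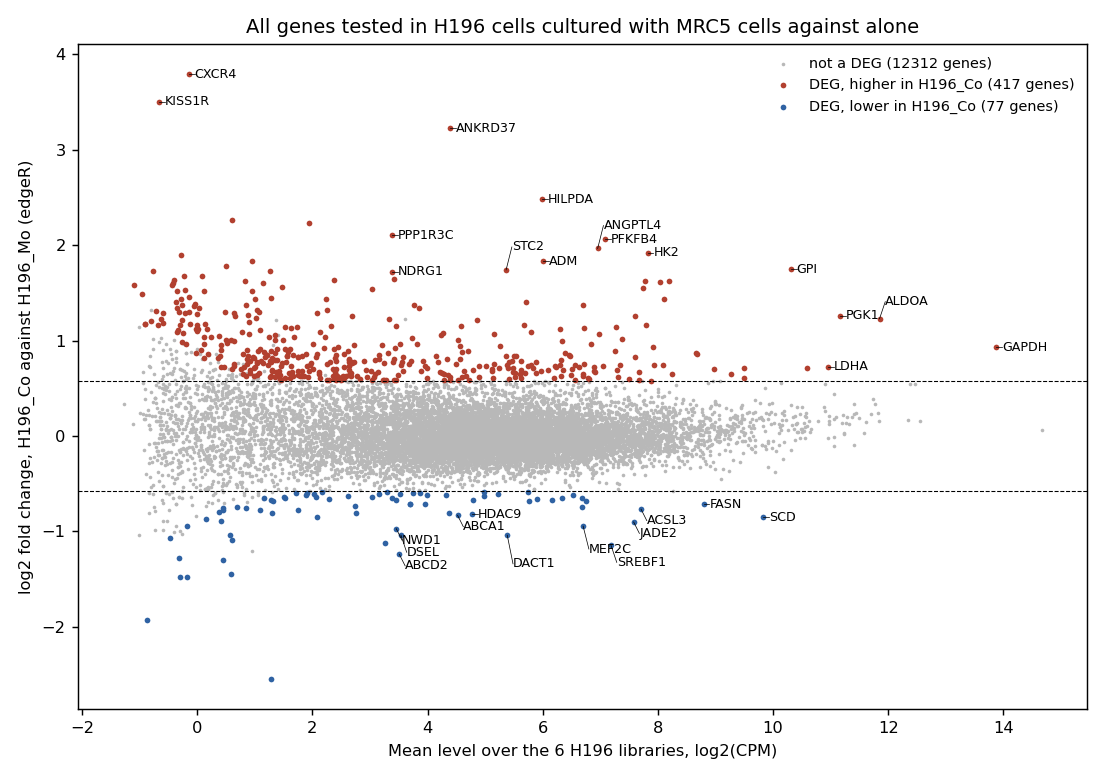
Each point is 1 of the 12806 genes tested, with its mean level over the 6 H196 libraries in log2 CPM on the x axis and its log2 fold change in H196_Co against H196_Mo on the y axis; dashed lines mark the fold limit of 0.58 and named genes have a line to their point. The 417 upregulated genes reach higher fold changes than the 77 downregulated genes, and GAPDH, ALDOA, PGK1, GPI and LDHA stand at the right, among the most abundant transcripts.

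Among these better measured DEGs the 10 largest rises were in ANKRD37, HILPDA, PPP1R3C, PFKFB4, ANGPTL4, HK2, ADM, GPI, STC2 and NDRG1, with fold changes from 9.37 in ANKRD37 to 3.29 in NDRG1. ANKRD37, an ankyrin repeat protein known as a HIF-1 target, had 4.05, 3.39 and 4.73 CPM in H196_Mo and 51.7, 30.3 and 32.2 CPM in H196_Co (log2 fold change 3.23 ± 0.18, adjusted p = 9.40e-11). HILPDA, a lipid droplet protein that inhibits the lipase ATGL, had 20.4, 19.7 and 17.7 CPM in H196_Mo and 119.5, 105 and 98.3 CPM in H196_Co (log2 fold change 2.48 ± 0.09, adjusted p = 7.69e-14). Every H196_Co library was above every H196_Mo library by a wide margin for both genes, and H196_Co replicate 1 was the highest of all. PPP1R3C, which brings protein phosphatase 1 to glycogen, had 3.93, 3.95 and 3.93 CPM in H196_Mo and 20.1, 15.1 and 15.7 CPM in H196_Co (log2 fold change 2.1 ± 0.13, adjusted p = 6.32e-10). PPP1R3C was nearly equal in the 3 H196_Mo libraries. Enzymes of glucose metabolism came next. PFKFB4, which sets the level of the glycolytic activator fructose 2,6-bisphosphate, rose from 52.3 ± 3.03 to 219 ± 9.62 CPM (mean ± SD, n = 3 per group; log2 fold change 2.06 ± 0.07, adjusted p = 7.69e-14). HK2, the inducible hexokinase that phosphorylates glucose, had 92.8, 94.7 and 96.1 CPM in H196_Mo and 346, 378 and 350.4 CPM in H196_Co (log2 fold change 1.92 ± 0.07, adjusted p = 7.69e-14). GPI, the isomerase of the next step, had 564, 582 and 601 CPM in H196_Mo and 2037, 1898 and 1923 CPM in H196_Co (log2 fold change 1.75 ± 0.07, adjusted p = 5.66e-13). No H196_Co value came near the H196_Mo range in any of the 3 enzymes.

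ANGPTL4, a secreted inhibitor of lipoprotein lipase, rose from 50.6 ± 2.35 to 198 ± 19.3 CPM (log2 fold change 1.97 ± 0.08, adjusted p = 5.66e-13). ADM, the precursor of the vasodilator adrenomedullin, rose from 28.3 ± 0.407 to 100.5 ± 12.7 CPM (log2 fold change 1.83 ± 0.09, adjusted p = 5.77e-12). STC2, a secreted glycoprotein, rose from 19 ± 0.686 to 63.4 ± 5.64 CPM (log2 fold change 1.74 ± 0.08, adjusted p = 7.35e-12). NDRG1, a stress-responsive gene, was the least abundant of the 10 after co-culture and had 5.06, 4.52 and 5.07 CPM in H196_Mo and 17.0, 16.9 and 14.5 CPM in H196_Co (log2 fold change 1.72 ± 0.12, adjusted p = 2.06e-09). None of the 10 lost its call when any 1 of the 6 libraries was left out. The counts of PFKFB4 and GPI were not whole in every library, which means that the authors' counting divided some of their reads with other genes.

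Measured by gain in mean CPM rather than by fold, the 5 DEGs with the largest gain were GAPDH, ALDOA, PGK1, GPI and LDHA, all enzymes of glycolysis or of its last step to lactate. GAPDH, which oxidizes glyceraldehyde 3-phosphate, had 9477, 10729 and 10844 CPM in H196_Mo and 21369, 19078 and 18661 CPM in H196_Co, a gain of 9352 CPM (log2 fold change 0.93 ± 0.08, adjusted p = 1.35e-07). ALDOA, the aldolase that splits the hexose bisphosphate, rose from 2207 ± 161 to 5169 ± 374 CPM (log2 fold change 1.23 ± 0.08, adjusted p = 1.09e-09). PGK1, the first enzyme of the pathway to yield ATP, rose from 1358 ± 119.5 to 3249 ± 130.1 CPM (log2 fold change 1.26 ± 0.08, adjusted p = 5.62e-10). The counts of ALDOA and PGK1 were not whole in every library either. The 10 most abundant genes of each library held 6.68% to 7.21% of all counts in H196_Mo and 8.42% to 8.77% in H196_Co, and the TMM factors, which offset such a shift, were 1.02 to 1.05 in H196_Mo and 0.959 to 0.990 in H196_Co.

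The promoters of several of these genes show the short element that HIFs bind, and are given here because the genes moved together. Sequences are from RefSeq (GRCh38.p14), from 250 bases before to 50 bases after the annotated start of the gene, and 10400 of the 12806 tested genes could be matched by symbol. Capitals mark ACGTG or GCGTG on either strand, so that CACGT or CACGC is the same element read on the other strand, and CACGTG, which is also the E-box of MYC and its relatives, counts on both. The windows are ANKRD37 (chr4:185396591-185396890, plus strand), HK2 (chr2:74833877-74834176, plus strand), PPP1R3C (chr10:91633022-91633321, minus strand), GPI (chr19:34364742-34365041, plus strand) and GAPDH (chr12:6535014-6535313, plus strand).
ANKRD37: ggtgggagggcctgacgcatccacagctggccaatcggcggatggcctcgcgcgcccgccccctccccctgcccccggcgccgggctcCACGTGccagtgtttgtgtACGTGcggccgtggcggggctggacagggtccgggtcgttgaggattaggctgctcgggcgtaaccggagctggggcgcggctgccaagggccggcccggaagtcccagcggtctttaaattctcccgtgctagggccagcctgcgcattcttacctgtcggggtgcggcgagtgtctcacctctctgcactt
HK2: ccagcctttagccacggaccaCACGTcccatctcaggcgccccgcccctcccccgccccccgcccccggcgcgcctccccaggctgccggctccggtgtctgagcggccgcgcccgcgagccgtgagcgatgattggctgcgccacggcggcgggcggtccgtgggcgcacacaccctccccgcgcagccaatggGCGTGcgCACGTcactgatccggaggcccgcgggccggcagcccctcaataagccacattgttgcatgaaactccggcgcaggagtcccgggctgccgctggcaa
PPP1R3C: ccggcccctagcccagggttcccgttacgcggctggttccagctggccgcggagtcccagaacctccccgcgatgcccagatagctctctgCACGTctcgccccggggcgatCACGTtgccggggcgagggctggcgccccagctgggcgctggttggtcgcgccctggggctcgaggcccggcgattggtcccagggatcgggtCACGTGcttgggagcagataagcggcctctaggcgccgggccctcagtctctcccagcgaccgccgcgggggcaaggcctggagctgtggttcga
GPI: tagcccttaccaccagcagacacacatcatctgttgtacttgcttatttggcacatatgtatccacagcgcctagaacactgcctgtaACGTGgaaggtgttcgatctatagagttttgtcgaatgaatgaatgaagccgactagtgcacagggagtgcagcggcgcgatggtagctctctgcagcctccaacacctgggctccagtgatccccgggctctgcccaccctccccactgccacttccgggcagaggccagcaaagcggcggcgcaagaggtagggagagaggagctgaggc
GAPDH: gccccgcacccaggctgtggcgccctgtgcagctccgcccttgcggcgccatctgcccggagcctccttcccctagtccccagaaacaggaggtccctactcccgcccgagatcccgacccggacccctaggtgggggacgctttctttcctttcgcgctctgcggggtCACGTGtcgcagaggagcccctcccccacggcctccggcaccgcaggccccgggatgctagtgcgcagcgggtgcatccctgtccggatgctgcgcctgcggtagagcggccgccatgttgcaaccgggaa
ANKRD37 has 3 matches, HK2 3, PPP1R3C 4, GPI 1 and GAPDH 2, where a CACGTG gives 2 of them. Over all promoters matched, ACGTG was present in 2788 of 10400 (26.8%), GCGTG in 5341 of 10400 (51.4%) and either in 6628 of 10400 (63.7%). Either was present in 191 of 310 (61.6%) of the upregulated and 32 of 60 (53.3%) of the downregulated DEGs, so that the element was about as common in upregulated genes as in all genes. ACGTG was present in 7 of 12 (58.3%) of the genes of lower glycolysis, which were GPI, ALDOA, ALDOC, GAPDH, PGK1 and ENO2, all 6 of them upregulated DEGs, and BPGM, which was not a DEG. It was present in 11 of 18 (61.1%) of the classical hypoxia genes with a promoter. GCGTG was present in 5 of 12 (41.7%) of the lower glycolysis and 9 of 18 (50%) of the hypoxia promoters, below its share of all promoters, and either in 10 of 12 (83.3%) and 15 of 18 (83.3%). These are matches of letters in 1 window per gene and say nothing of binding.

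The pathway from glucose to lactate was followed gene by gene. For uptake and trapping, 4 of 7 tested genes were upregulated and 1 downregulated (median log2 fold change of the list 0.90). SLC2A1 (GLUT1), the basal glucose transporter, had 107, 117 and 118 CPM in H196_Mo and 283, 273 and 263 CPM in H196_Co (log2 fold change 1.26 ± 0.07, adjusted p = 7.07e-11). SLC2A3 (GLUT3), a transporter of high affinity, had 141, 143 and 148 CPM in H196_Mo and 479, 459 and 397 CPM in H196_Co (log2 fold change 1.63 ± 0.08, adjusted p = 4.63e-12). HK1, the constitutive hexokinase, had 101, 110.3 and 109 CPM in H196_Mo and 193, 201 and 202 CPM in H196_Co (log2 fold change 0.90 ± 0.07, adjusted p = 1.15e-08). In all 3 genes the lowest H196_Co library lay above the highest H196_Mo library. SLC2A6, a lysosomal member of the transporter family, went the other way, from 16.1 ± 2.12 to 9.82 ± 1.09 CPM (log2 fold change -0.71 ± 0.12, adjusted p = 2.38e-04). On the deposited FPKM scale, which corrects for length, SLC2A3 rose from 41.6 to 122 and SLC2A1 from 37.7 to 85.5, HK2 from 18.5 to 66.0 and HK1 from 33.0 to 58.2. HK2 was thus below HK1 in H196_Mo and above it in H196_Co. The counts of SLC2A3, which has the near copy SLC2A14, were not whole in every library.

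At the phosphofructokinase step 1 of 8 tested genes was upregulated and 0 downregulated (median log2 fold change of the list 0.27), the upregulated gene being PFKFB4. The enzymes themselves moved less, with log2 fold changes of 0.57 ± 0.07 for PFKL and 0.46 ± 0.07 for PFKP, and PFKFB3 was at 0.58 ± 0.07, just under the limit. PFKFB2 was lower (-0.48 ± 0.11), as was TIGAR, a phosphatase that opposes the pathway (-0.38 ± 0.10), both at an adjusted p under 0.05 and inside the fold limit. For lower glycolysis 6 of 12 tested genes were upregulated and 0 downregulated, and 11 of the 12 were higher at an adjusted p under 0.05 (median log2 fold change of the list 0.74). Each step below fructose bisphosphate had a member that rose, in the sense of the adjusted p. ALDOC, the brain-type aldolase, had the largest fold of the list, from 1.34 ± 0.284 to 6.37 ± 0.325 CPM (log2 fold change 2.24 ± 0.18, adjusted p = 1.84e-08), from a low level. ENO2, the neuronal enolase, rose from 108 ± 4.36 to 332 ± 20.8 CPM (log2 fold change 1.62 ± 0.07, adjusted p = 1.95e-12), while ENO1, the main enolase of the cells, was at 0.55 ± 0.09 and did not reach the fold limit. TPI1 (0.55 ± 0.08) and PGAM1 (0.51 ± 0.07) were close below the limit, and PKM, the pyruvate kinase, was at 0.23 ± 0.08 (adjusted p = 0.0415).

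At the branch to lactate, LDHA, which reduces pyruvate, had 1503, 1464 and 1541 CPM in H196_Mo and 2753, 2407 and 2304 CPM in H196_Co (log2 fold change 0.73 ± 0.08, adjusted p = 1.25e-06). PDK1, the kinase that phosphorylates and inhibits pyruvate dehydrogenase, rose from 77.7 ± 3.83 to 151 ± 15.5 CPM (log2 fold change 0.96 ± 0.08, adjusted p = 3.10e-08), and PDP1, the phosphatase that removes this phosphate, was lower inside the fold limit (-0.41 ± 0.07). In the list on the fate of pyruvate 2 of 14 tested genes were upregulated and 0 downregulated (median log2 fold change of the list 0.0005). For export of lactate and acid 1 of 6 tested genes was upregulated and 0 downregulated (median log2 fold change of the list 0.07), and the gene was SLC16A3 (MCT4), the exporter of glycolytic cells. It had 351, 420.0 and 385 CPM in H196_Mo and 638, 592 and 646 CPM in H196_Co (log2 fold change 0.70 ± 0.08, adjusted p = 1.36e-06). SLC16A1 (MCT1), which can also take lactate up, had 104, 97.5 and 99.1 CPM in H196_Mo and 102, 107 and 99.0 CPM in H196_Co, and the 95% interval of its log2 fold change was -0.11 to 0.18 (log2 fold change 0.04 ± 0.07, adjusted p = 0.755). The values of the groups overlapped for SLC16A1 and did not for SLC16A3, and limma on log2(FPKM + 1) put SLC16A1 at -0.039.

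**Figure D2:**
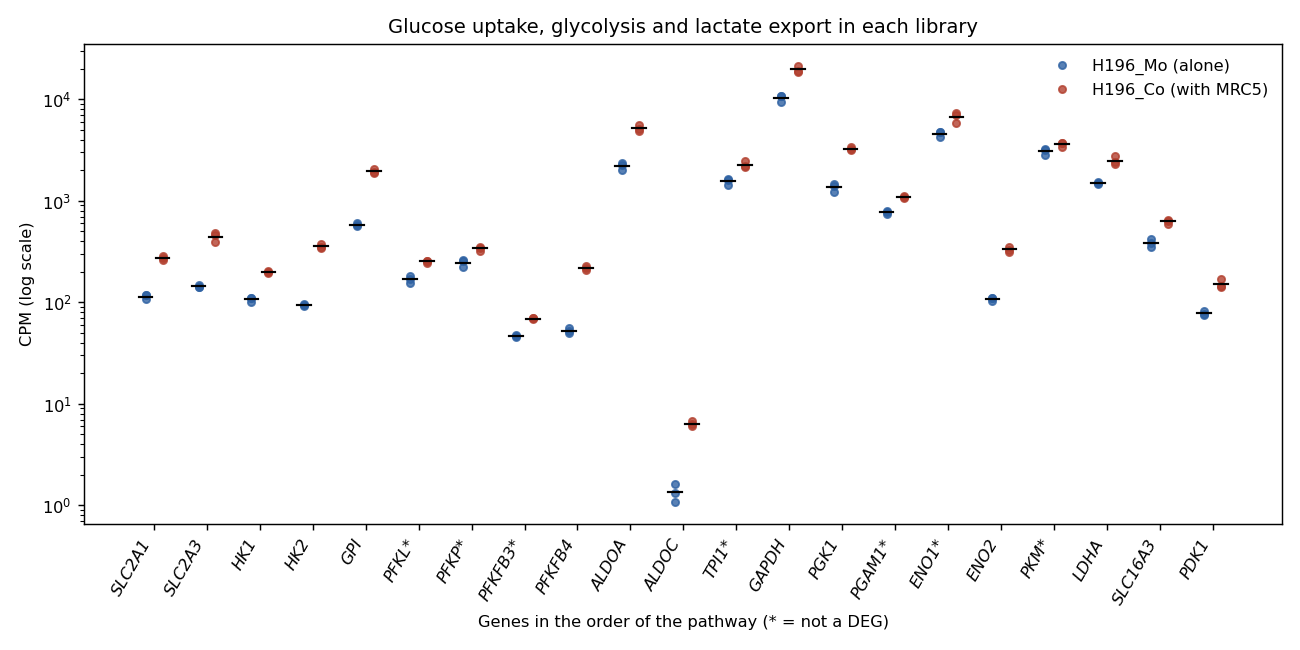
Level of each gene in CPM (log axis) in the 3 H196_Mo (blue) and 3 H196_Co (red) libraries, with black bars for the group means, in the order of the pathway; an asterisk marks genes that were not DEGs. All 21 genes shown are higher in H196_Co, with the widest gaps in HK2, GPI, PFKFB4, ALDOC, SLC2A3 and ENO2. The genes drawn are a choice from the lists, so their shared direction is no result. Genes not drawn include SLC2A6, PFKFB2, TIGAR and PDP1, which were lower in H196_Co, and SLC16A1, which did not pass the test.

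Genes of glycogen, the storage form of glucose, moved in both directions: in the list 3 of 12 tested genes were upregulated and 1 downregulated (median log2 fold change of the list 0.14). Beside PPP1R3C, GYS1, the glycogen synthase, rose from 65.8 ± 5.60 to 144 ± 10.6 CPM (log2 fold change 1.13 ± 0.08, adjusted p = 3.39e-09), and GBE1, the branching enzyme, rose from 43.7 ± 0.645 to 74.9 ± 7.42 CPM (log2 fold change 0.78 ± 0.08, adjusted p = 6.42e-07). PPP1R3D, another glycogen-targeting subunit of the phosphatase, fell from 8.40 ± 0.773 to 5.04 ± 0.798 CPM (log2 fold change -0.74 ± 0.14, adjusted p = 8.49e-04). No gene of the mitochondrial lists passed both limits, against 3.26% of all genes upregulated and 0.601% downregulated. For the shorter lists, of 17 and 13 genes, 0 is near this share. Of 71 respiratory chain subunits tested, 0 were DEGs by edgeR, with 2 higher and 1 lower at an adjusted p under 0.05 and all log2 fold changes between -0.27 and 0.32 (10 at an unadjusted p under 0.05, and 0 called by DESeq2 or by limma on FPKM). Of 17 genes of the TCA cycle, 0 were DEGs, and IDH2, which makes NADPH in mitochondria, was the highest at 0.55 ± 0.07 (4 at an unadjusted p under 0.05, and 0 called by DESeq2 or by limma on FPKM). Of 13 genes of glutamine and aspartate handling, 0 were DEGs, with log2 fold changes from -0.33 to 0.45 (7 at an unadjusted p under 0.05, and 0 called by DESeq2 or by limma on FPKM). In the list on the pentose phosphate pathway and NRF2, 3 of 15 tested genes were upregulated and 0 downregulated (median log2 fold change of the list -0.01), all of the upregulated genes being NRF2 targets. HMOX1, heme oxygenase 1, rose from 28.7 ± 1.63 to 75.9 ± 5.28 CPM (log2 fold change 1.40 ± 0.08, adjusted p = 9.10e-11). The others were the cystine transporter SLC7A11 (0.58 ± 0.11) and OSGIN1 (0.61 ± 0.08), close to the limit. SLC7A11 was not a DEG without H196_Mo replicate 2 or 3 or H196_Co replicate 2 or 3 (log2 fold change 0.53 to 0.57). OSGIN1 was not a DEG without H196_Mo replicate 1 or H196_Co replicate 1 (log2 fold change 0.54 to 0.55).

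In the list of classical hypoxia genes 20 of 22 tested genes were upregulated and 0 downregulated (median log2 fold change of the list 1.27), against 3.26% of all genes upregulated. The list was chosen with earlier results of these data known, so its share does not stand for hypoxia genes at large. In the wider Hallmark Hypoxia set, described below, 57 of 165 tested genes (34.5%) were upregulated. VEGFA, the main angiogenic factor, had 47.1, 50.7 and 50.1 CPM in H196_Mo and 111, 106 and 106 CPM in H196_Co (log2 fold change 1.12 ± 0.07, adjusted p = 6.17e-10). BNIP3, a receptor for mitophagy, rose from 149 ± 9.61 to 403 ± 38.6 CPM (log2 fold change 1.43 ± 0.08, adjusted p = 6.28e-11), and its relative BNIP3L was at 0.48 ± 0.07 and thus inside the fold limit. DDIT4 (REDD1), an inhibitor of mTORC1, rose from 129 ± 13.7 to 394 ± 29.2 CPM (log2 fold change 1.61 ± 0.08, adjusted p = 1.70e-11). ERO1A, the oxidase of protein folding in the ER, rose from 138 ± 9.32 to 307 ± 19 CPM (log2 fold change 1.16 ± 0.07, adjusted p = 6.17e-10). The only tested member of the list with a log2 fold change below 0 was LOX (-0.25 ± 0.21), whose groups overlapped. CA9, often used as a marker of hypoxia, had 0, 1 and 0 counts in H196_Mo and 0, 0 and 0 in H196_Co, and EGLN3 had 0, 3 and 1 counts in H196_Mo and 5, 1 and 2 in H196_Co, so neither could be tested at this depth.

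The HIF genes themselves did not move as one. HIF1A, the oxygen-regulated alpha subunit of HIF-1, had 142, 136 and 137 CPM in H196_Mo and 103, 114 and 101 CPM in H196_Co and was lower in every H196_Co library, inside the fold limit (log2 fold change -0.38 ± 0.07, adjusted p = 9.12e-04). EPAS1, the alpha subunit of HIF-2, was scarce and had 16, 18 and 16 counts in H196_Mo and 27, 42 and 25 in H196_Co (log2 fold change 0.97 ± 0.26, adjusted p = 0.0134). EGLN1 (PHD2), the main HIF prolyl hydroxylase and itself a HIF target, rose from 88.9 ± 6.55 to 135 ± 7.21 CPM (log2 fold change 0.60 ± 0.07, adjusted p = 9.40e-06). EPAS1 was not a DEG without H196_Co replicate 2 (log2 fold change 0.71 with an adjusted p of 0.0888). EGLN1 was not a DEG without H196_Mo replicate 2 or 3 or H196_Co replicate 1 (log2 fold change 0.56 to 0.57). In this list 2 of 7 tested genes were upregulated and 0 downregulated (median log2 fold change of the list -0.01). The transcript of HIF1A does not report the level of its protein, which is set by degradation. By western blot, the paper found HIF-1α protein unchanged in H196 cells cultured with MRC5 cells.

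Among the oxygen-using histone lysine demethylases 4 of 17 tested genes were upregulated and 0 downregulated (median log2 fold change of the list 0.10). KDM3A, which removes methyl groups from histone H3 lysine 9, rose from 156 ± 2.53 to 249 ± 5.36 CPM (log2 fold change 0.67 ± 0.07, adjusted p = 3.35e-07). KDM4B was at 0.75 ± 0.08, KDM7A at 0.78 ± 0.10 and KDM6B at 0.61 ± 0.09 on the log2 scale. KDM6B was not a DEG without H196_Mo replicate 1 or H196_Co replicate 2 (log2 fold change 0.53 to 0.56). In the list of mTORC1 brakes 2 of 14 tested genes were upregulated and 0 downregulated (median log2 fold change of the list 0.02), DDIT4 and the scarce arginine sensor CASTOR1 (0.86 ± 0.18). In the MYC network 2 of 12 tested genes were upregulated and 0 downregulated (median log2 fold change of the list 0.16): MXI1, an antagonist of MYC, rose from 22.9 ± 0.598 to 48.2 ± 2.40 CPM (log2 fold change 1.07 ± 0.08, adjusted p = 5.66e-09), and MYC was at 0.62 ± 0.07. MYC was not a DEG without H196_Mo replicate 3 or H196_Co replicate 1 (log2 fold change 0.55 to 0.57). In the list on mitophagy and autophagy 1 of 13 tested genes was upregulated and 0 downregulated (median log2 fold change of the list 0.04), the gene being BNIP3.

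**Figure D3:**
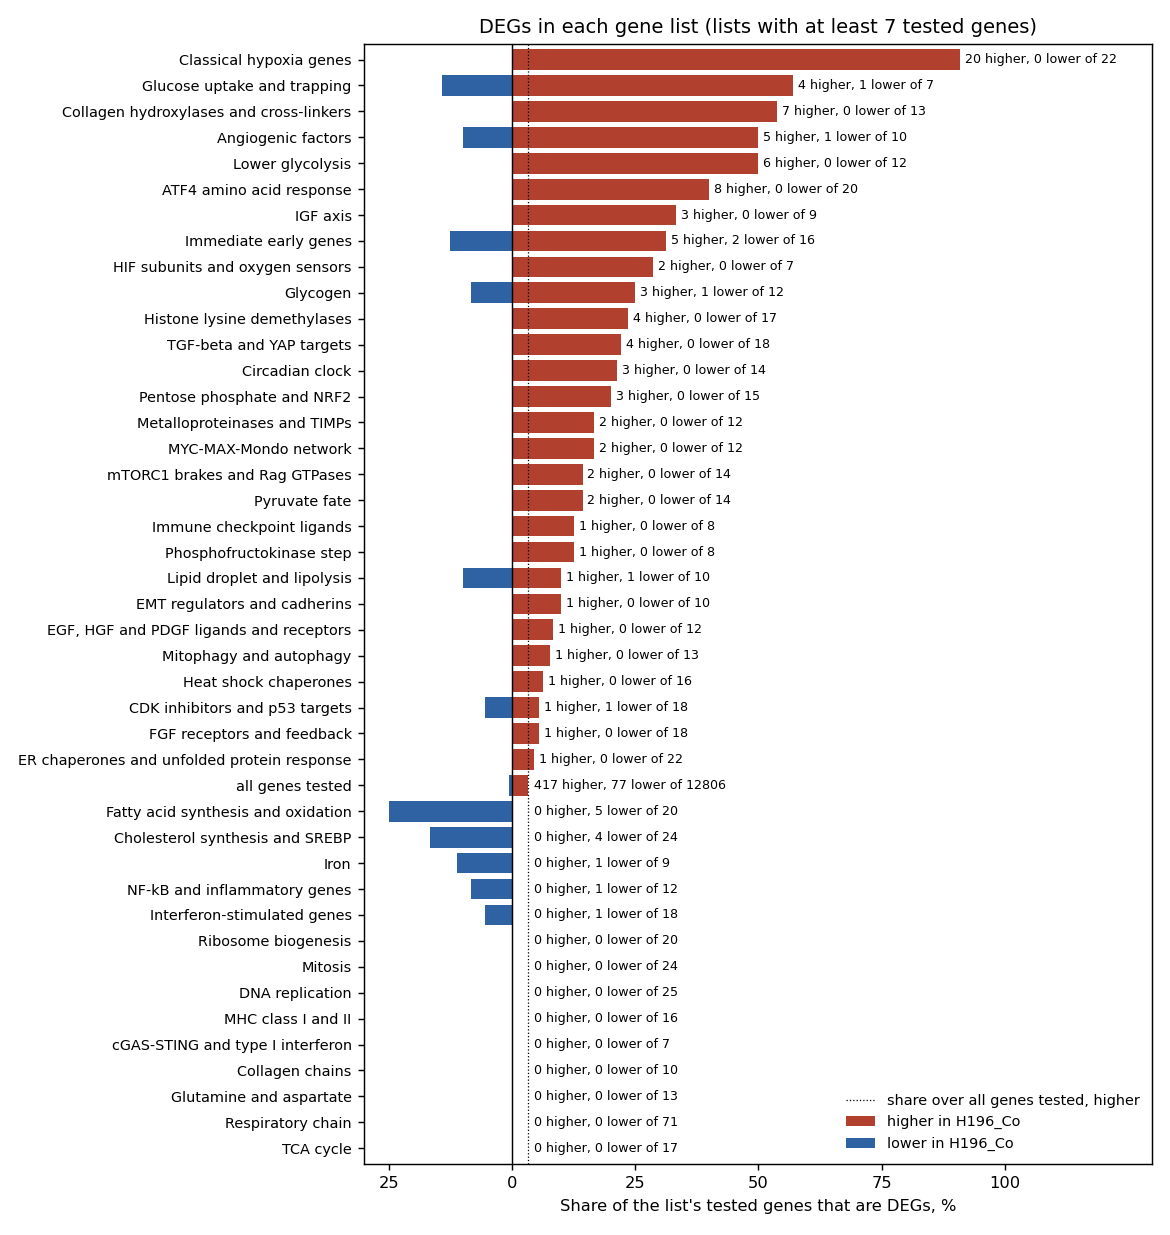
Share of each list's tested genes that were DEGs, in percent, with upregulated genes to the right in red and downregulated genes to the left in blue, and the counts beside each bar. The dotted line is the upregulated share over all 12806 genes tested (3.26%). The lists were chosen with earlier results of these data known. Hypoxia, glucose uptake, collagen hydroxylases, angiogenic factors and lower glycolysis have the longest bars to the right among the lists with at least 7 tested genes, which are those drawn; fatty acid and cholesterol synthesis point only to the left, and the respiratory chain and cell division lists are empty.

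Of the angiogenic factors, 5 of 10 tested genes were upregulated and 1 downregulated (median log2 fold change of the list 0.67). Beside VEGFA, ANGPTL4 and ADM these were the ephrin EFNA3 (from 5.15 ± 1.08 to 16.2 ± 0.419 CPM; log2 fold change 1.65 ± 0.13, adjusted p = 1.15e-08) and the secreted ribonuclease angiogenin, ANG (0.81 ± 0.13), while ANGPT1, the ligand of TIE2 that stabilizes vessels, fell from 13.9 ± 1.21 to 9.14 ± 1.08 CPM (log2 fold change -0.61 ± 0.11, adjusted p = 8.49e-04). ANGPT1 was not a DEG without H196_Mo replicate 1 or H196_Co replicate 1 or 3 (log2 fold change -0.57 to -0.53). Of the collagen hydroxylases and cross-linkers, 7 of 13 tested genes were upregulated and 0 downregulated (median log2 fold change of the list 0.71). P4HA1, the catalytic subunit of collagen prolyl 4-hydroxylase, had 84.7, 79.5 and 81.3 CPM in H196_Mo and 186, 178 and 151 CPM in H196_Co (log2 fold change 1.07 ± 0.08, adjusted p = 6.72e-09). PLOD1, a lysyl hydroxylase, had 98.1, 118 and 115 CPM in H196_Mo and 232, 215 and 223 CPM in H196_Co (log2 fold change 1.02 ± 0.08, adjusted p = 7.67e-09). The remaining DEGs were PLOD2 (0.86 ± 0.08), the lysyl oxidase LOXL2 (0.73 ± 0.07), P4HA2 (0.72 ± 0.07), P4HB (0.71 ± 0.07) and P4HA3 (1.29 ± 0.35), the last with 12, 5 and 9 counts in H196_Mo and 23, 24 and 14 in H196_Co. P4HA3 was not a DEG without H196_Mo replicate 2 or H196_Co replicate 1 (log2 fold change 1.0 to 1.18 with an adjusted p of 0.061 to 0.0702).

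The collagen chains, the substrates of these enzymes, did not pass both limits. With 3.26% of all genes upregulated and 0.601% downregulated, 0 in a list of 10 is near the share of all genes. Of 10 chains tested, 0 were DEGs by edgeR, with 3 higher at an adjusted p under 0.05 (COL6A2 0.35 ± 0.07, COL7A1 0.35 ± 0.11 and COL13A1 0.30 ± 0.10) and a median log2 fold change of 0.27 (5 at an unadjusted p under 0.05, and 0 called by DESeq2 or by limma on FPKM). COL1A1 had 17, 29 and 26 counts in H196_Mo and 28, 35 and 28 in H196_Co, and COL1A2 at most 1 count in any library. Of the metalloproteinases and their inhibitors, 2 of 12 tested genes were upregulated and 0 downregulated (median log2 fold change of the list 0.13). MMP14, the membrane-bound collagenase, rose from 120.1 ± 5.90 to 194 ± 10.4 CPM (log2 fold change 0.69 ± 0.07, adjusted p = 7.28e-07), and MMP15, of the same membrane type, rose from 2.25 ± 0.229 to 4.07 ± 0.909 CPM (log2 fold change 0.85 ± 0.19, adjusted p = 0.00361).

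In the list of TGF-beta and YAP targets 4 of 18 tested genes were upregulated and 0 downregulated (median log2 fold change of the list 0.13). CCN1, a matricellular protein, had 288, 297 and 289 CPM in H196_Mo and 560.3, 481 and 544 CPM in H196_Co (log2 fold change 0.86 ± 0.07, adjusted p = 3.92e-08). Others of the 4 were CCN2, at 0.85 ± 0.07, and the scarce ANKRD1, at 1.68 ± 0.31. None of the 3 TGF-beta genes and 3 receptors was a DEG, and TGFB1 was at 0.32 ± 0.07, higher at an adjusted p under 0.05 and inside the fold limit. Of the EMT regulators and cadherins, 1 of 10 tested genes was upregulated and 0 downregulated (median log2 fold change of the list 0.14): SNAI1, a repressor of epithelial genes, had 20, 25 and 23 counts in H196_Mo and 58, 56 and 63 in H196_Co (log2 fold change 1.44 ± 0.19, adjusted p = 2.40e-05). VIM was abundant in both groups, from 4886 ± 224 to 5499 ± 224 CPM (log2 fold change 0.17 ± 0.07, adjusted p = 0.112).

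Immediate early genes, which code for transcription factors induced within minutes of a stimulus, moved in both directions: 5 of 16 tested genes were upregulated and 2 downregulated (median log2 fold change of the list 0.23). The upregulated members belonged to the AP-1, ATF and EGR families. JUN had 52.1, 56.0 and 52.5 CPM in H196_Mo and 114, 105 and 102 CPM in H196_Co (log2 fold change 1.0 ± 0.07, adjusted p = 5.66e-09), EGR1 was at 0.95 ± 0.11, FOSL1 at 0.65 ± 0.07, ATF3 at 0.80 ± 0.15 and FOS at 0.61 ± 0.10. FOS was not a DEG without H196_Mo replicate 1 or H196_Co replicate 1 or 2 (log2 fold change 0.56 to 0.58). The orphan nuclear receptors NR4A2 and NR4A3 were lower: NR4A2 had 11.9, 13.4 and 13.9 CPM in H196_Mo and 5.45, 5.40 and 7.23 CPM in H196_Co (log2 fold change -1.12 ± 0.13, adjusted p = 2.75e-06), and NR4A3 had 37, 34 and 44 counts in H196_Mo and 12, 11 and 17 in H196_Co (log2 fold change -1.45 ± 0.25, adjusted p = 5.04e-04). No value of the H196_Co libraries reached the H196_Mo range in these 2 genes.

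By the same rule as for the rises, the 10 largest falls were in ABCD2, SREBF1, DACT1, DSEL, NWD1, MEF2C, JADE2, SCD, ABCA1 and HDAC9, with fold decreases from 2.37 to 1.77, and the 5 DEGs with the largest loss in mean CPM were SCD, FASN, JADE2, SREBF1 and ACSL3. SREBF1, which codes for SREBP-1, the regulator of fatty acid synthesis, had 182, 216 and 204 CPM in H196_Mo and 78.4, 89.8 and 104 CPM in H196_Co (log2 fold change -1.15 ± 0.09, adjusted p = 1.44e-08). SCD, the desaturase that makes monounsaturated fatty acids, had 1176, 1187 and 1156 CPM in H196_Mo and 604, 693 and 653 CPM in H196_Co, a loss of 523 CPM (log2 fold change -0.85 ± 0.07, adjusted p = 4.17e-08). All 3 H196_Co libraries were below all 3 H196_Mo libraries in both genes. ABCD2, a peroxisomal transporter of very long-chain fatty acids, had 16.6, 15.0 and 16.5 CPM in H196_Mo and 5.93, 7.08 and 7.29 CPM in H196_Co (log2 fold change -1.24 ± 0.11, adjusted p = 1.24e-07). ABCA1, which exports cholesterol, had 29.2, 28.6 and 30.4 CPM in H196_Mo and 14.0, 17.9 and 17.7 CPM in H196_Co (log2 fold change -0.83 ± 0.10, adjusted p = 2.97e-06).

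In the list of fatty acid synthesis and oxidation 0 of 20 tested genes were upregulated and 5 downregulated, and 9 were lower and 0 higher at an adjusted p under 0.05 (median log2 fold change of the list -0.17). All 5 downregulated genes but ABCD2 act in synthesis or activation. FASN, the fatty acid synthase, had 483, 596 and 575 CPM in H196_Mo and 289, 339 and 379 CPM in H196_Co (log2 fold change -0.71 ± 0.09, adjusted p = 1.55e-05). ACSL3, which couples fatty acids to coenzyme A, fell from 263 ± 10.4 to 155 ± 10.5 CPM (log2 fold change -0.77 ± 0.07, adjusted p = 1.63e-07), and ACACA, the carboxylase that supplies FASN, was at -0.65 ± 0.08. ACACA was not a DEG without H196_Co replicate 1 (log2 fold change -0.58). CPT1A, the gate of mitochondrial oxidation, was at 0.14 ± 0.07. The list on lipid droplets held 1 upregulated and 1 downregulated gene of 10 tested, HILPDA and LPIN1 (-0.58 ± 0.08), a phosphatidate phosphatase. LPIN1 was not a DEG without H196_Mo replicate 1 or H196_Co replicate 1 (log2 fold change -0.55 to -0.51).

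Of 24 cholesterol genes tested, 4 were downregulated and 0 upregulated, and 18 were lower at an adjusted p under 0.05, against 7.78% of all genes (median log2 fold change of the list -0.38). HMGCS1, the synthase at the start of the mevalonate pathway, had 142, 127 and 127 CPM in H196_Mo and 77.7, 89.2 and 80.4 CPM in H196_Co (log2 fold change -0.68 ± 0.08, adjusted p = 2.03e-06). INSIG1, a sterol sensor that retains SREBPs in the ER, fell from 87.9 ± 4.70 to 55.1 ± 3.81 CPM (log2 fold change -0.67 ± 0.08, adjusted p = 2.41e-06), and IDI1, the isopentenyl isomerase, was at -0.67 ± 0.07. INSIG2, a relative of INSIG1 that is on the list of hypoxia genes, rose from 35.4 ± 1.89 to 75.7 ± 8.55 CPM (log2 fold change 1.09 ± 0.09, adjusted p = 1.31e-08), so that the INSIG genes moved in opposite directions. SREBF2, which codes for SREBP-2, was at -0.31 ± 0.07.

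**Figure D4:**
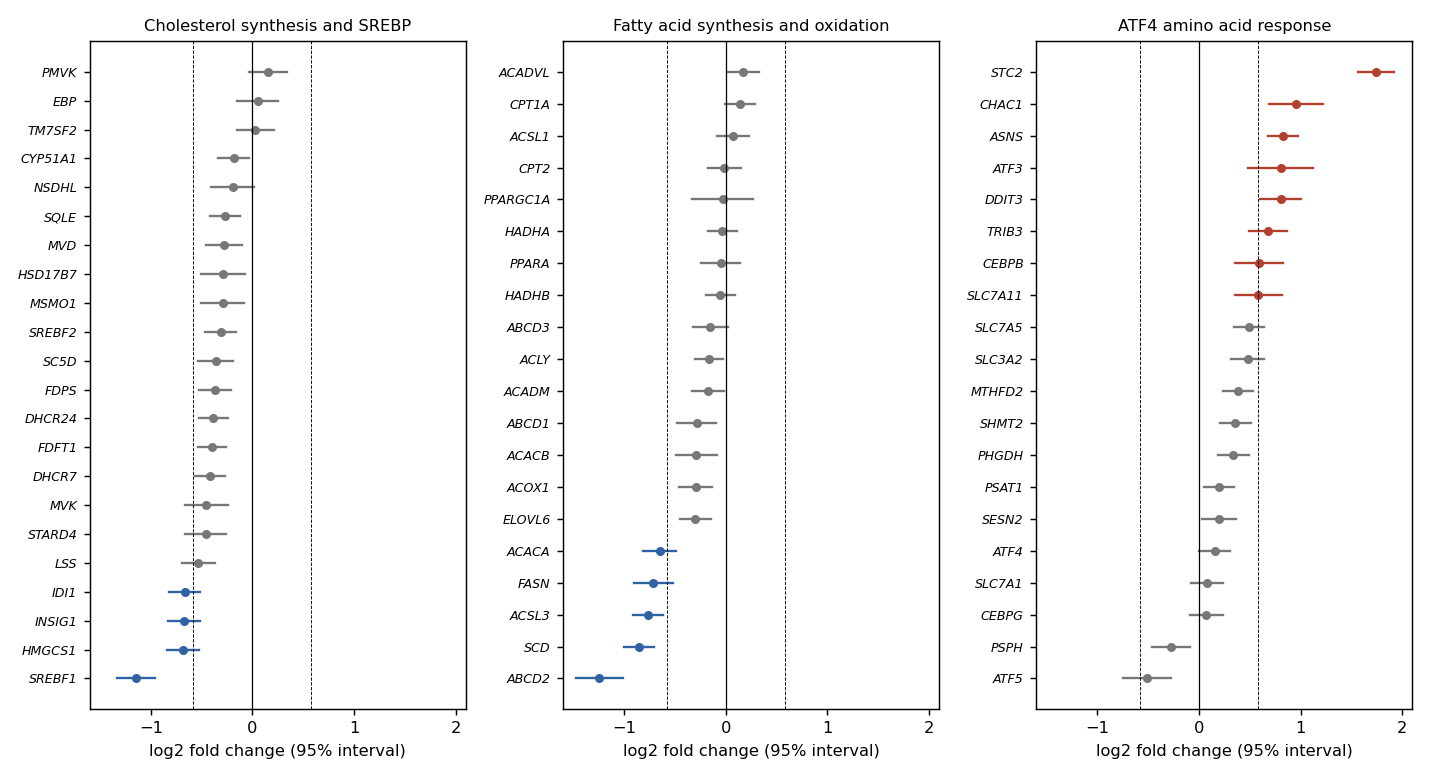
Log2 fold change in H196_Co against H196_Mo of tested genes of 3 lists, with its 95% interval as a bar; blue marks downregulated and red upregulated DEGs, grey the others, and dashed lines the limit of 0.58. Most cholesterol genes lie left of 0, as do 17 of the 20 fatty acid genes, and 18 of the 20 ATF4 genes lie right of 0.

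SREBPs act on promoters together with the factor NF-Y, which binds CCAAT, so the windows of HMGCS1 (chr5:43313363-43313662, minus strand) and SCD (chr10:100346983-100347282, plus strand) are given with CCAAT in capitals, or ATTGG where it is on the other strand.
HMGCS1: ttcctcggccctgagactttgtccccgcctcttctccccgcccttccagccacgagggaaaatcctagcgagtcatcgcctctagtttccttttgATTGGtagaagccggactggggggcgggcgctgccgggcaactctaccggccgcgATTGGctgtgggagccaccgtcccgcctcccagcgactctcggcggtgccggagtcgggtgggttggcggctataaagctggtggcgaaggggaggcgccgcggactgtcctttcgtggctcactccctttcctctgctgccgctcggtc
SCD: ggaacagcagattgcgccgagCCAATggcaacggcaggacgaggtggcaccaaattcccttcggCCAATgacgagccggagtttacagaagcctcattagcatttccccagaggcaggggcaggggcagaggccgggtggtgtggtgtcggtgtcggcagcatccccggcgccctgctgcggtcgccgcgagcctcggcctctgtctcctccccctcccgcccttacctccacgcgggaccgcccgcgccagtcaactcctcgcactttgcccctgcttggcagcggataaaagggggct
Each has 2 matches. CCAAT on either strand was present in 15 of 19 (78.9%) of the cholesterol list, 27 of 60 (45%) of the downregulated DEGs, 98 of 310 (31.6%) of the upregulated DEGs and 3836 of 10400 (36.9%) of all promoters matched. Of the downregulated genes of the cholesterol list, HMGCS1 and INSIG1 had it and IDI1 and SREBF1 did not. The other genes of that list with CCAAT were not DEGs. It was also present in 11 of 17 (64.7%) of the ATF4 list and 9 of 18 (50%) of the classical hypoxia genes, lists with no downregulated DEG. TCACNCCAC, the letters of a sterol regulatory element, was present in 1 of 19 (5.26%) of the cholesterol list and in 109 of 10400 (1.05%) of all.

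The remaining large falls were in genes of other kinds. MEF2C, a transcription factor of muscle and nerve, had 134, 133 and 144 CPM in H196_Mo and 65.7, 74.4 and 73.4 CPM in H196_Co (log2 fold change -0.95 ± 0.07, adjusted p = 1.39e-08). HDAC9, a class IIa histone deacetylase that binds MEF2 proteins, fell from 35.1 ± 2.11 to 19.8 ± 1.42 CPM (log2 fold change -0.82 ± 0.09, adjusted p = 9.13e-07). JADE2, a scaffold of a histone acetyltransferase complex, had 246, 258 and 244 CPM in H196_Mo and 127, 134 and 139 CPM in H196_Co (log2 fold change -0.90 ± 0.07, adjusted p = 8.42e-09). DACT1, an antagonist of Wnt signaling, was at -1.04 ± 0.08, DSEL, a dermatan sulfate epimerase, at -1.04 ± 0.11 and NWD1 at -0.97 ± 0.11. None of the 10 largest falls lost its call without any 1 library.

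Targets of ATF4 rose in part: 8 of 20 tested genes were upregulated and 0 downregulated, and 13 were higher and 2 lower at an adjusted p under 0.05 (median log2 fold change of the list 0.43). ASNS, asparagine synthetase, had 143, 131 and 148 CPM in H196_Mo and 263, 243 and 245 CPM in H196_Co (log2 fold change 0.83 ± 0.07, adjusted p = 5.10e-08). CHAC1, which degrades glutathione, had 4.47, 4.91 and 4.16 CPM in H196_Mo and 8.35, 8.59 and 9.36 CPM in H196_Co (log2 fold change 0.96 ± 0.13, adjusted p = 2.35e-05). DDIT3 (CHOP) was at 0.80 ± 0.10, TRIB3 at 0.68 ± 0.09 and CEBPB at 0.59 ± 0.11; STC2, ATF3 and SLC7A11, given above, are also on this list. CEBPB was not a DEG without H196_Mo replicate 2 or 3 or H196_Co replicate 1 (log2 fold change 0.50 to 0.53). ATF4 itself was at 0.15 ± 0.07 (adjusted p = 0.14), and ATF5 was lower (-0.51 ± 0.11). Of 22 tested genes of the unfolded protein response 1 was upregulated and 0 downregulated, the gene being ERO1A. HSPA5, the main ER chaperone, was at 0.03 ± 0.07. Of 16 heat shock genes 1 was upregulated and 0 downregulated, FKBP4 (from 289 ± 19.6 to 526 ± 27.9 CPM; log2 fold change 0.87 ± 0.07, adjusted p = 4.01e-08). With 3.26% of all genes upregulated and 0.601% downregulated, 1 DEG in a list of this size is near the share of all genes. In the iron list TFRC, the transferrin receptor, fell from 111 ± 10.4 to 72.6 ± 6.35 CPM (log2 fold change -0.62 ± 0.08, adjusted p = 2.35e-05), while the ferritin chains FTH1 (0.58 ± 0.08) and FTL (0.56 ± 0.08) were higher and just inside the fold limit. TFRC was not a DEG without H196_Mo replicate 1 or H196_Co replicate 2 (log2 fold change -0.55).

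ATF4 binds an element of which TGATGNAA gives the letters, and the windows of ASNS (chr7:97872359-97872658, minus strand) and CHAC1 (chr15:40953221-40953520, plus strand) carry it, on the other strand in CHAC1.
ASNS: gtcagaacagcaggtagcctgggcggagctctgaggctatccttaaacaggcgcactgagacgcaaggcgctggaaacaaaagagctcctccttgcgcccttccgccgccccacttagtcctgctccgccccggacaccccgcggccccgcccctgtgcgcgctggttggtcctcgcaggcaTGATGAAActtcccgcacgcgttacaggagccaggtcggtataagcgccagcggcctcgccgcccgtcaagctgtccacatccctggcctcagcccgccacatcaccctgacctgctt
CHAC1: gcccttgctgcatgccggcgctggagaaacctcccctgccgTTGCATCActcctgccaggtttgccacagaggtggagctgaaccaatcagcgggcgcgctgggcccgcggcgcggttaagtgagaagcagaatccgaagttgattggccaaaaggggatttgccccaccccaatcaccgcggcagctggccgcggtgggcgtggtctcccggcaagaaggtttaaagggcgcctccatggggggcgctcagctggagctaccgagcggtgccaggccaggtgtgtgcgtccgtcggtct
It was present in 5 of 17 (29.4%) of the ATF4 list, in ASNS, CHAC1, ATF3, SLC3A2 and SLC7A1, the first 3 of which were DEGs, and in 160 of 10400 (1.54%) of all promoters matched. Among the upregulated DEGs it was present in 8 of 310 (2.58%).

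Both DEGs with at most 3 counts in every library of a group were receptors. CXCR4, the receptor of the chemokine CXCL12, had 2, 1 and 3 counts in H196_Mo and 29, 23 and 32 in H196_Co, and the ratio of the summed counts was 14.7 (95% interval 6.47 to 41.1, counting error only; adjusted p = 1.60e-06). KISS1R, the receptor of kisspeptin, had 3, 2 and 0 counts in H196_Mo and 20, 22 and 16 in H196_Co, a ratio of 12.2 (4.92 to 38.9; adjusted p = 5.44e-05). Both stayed scarce, at 1.69 and 1.17 CPM in H196_Co.

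Of the FGF receptors and their feedback genes, 1 of 18 tested genes was upregulated and 0 downregulated (median log2 fold change of the list 0.06), the gene being the phosphatase DUSP5 (from 31.1 ± 1.68 to 51.8 ± 2.37 CPM; log2 fold change 0.74 ± 0.08, adjusted p = 9.06e-07). FGFR1 had 108, 114 and 113 CPM in H196_Mo and 118, 128 and 131 CPM in H196_Co, which did not pass the test (log2 fold change 0.17 ± 0.07, adjusted p = 0.0979; 95% interval 0.02 to 0.31), although its groups did not overlap. In the IGF axis 3 of 9 tested genes were upregulated and 0 downregulated (median log2 fold change of the list 0.38): IGF2, a growth factor, rose from 32.1 ± 2.62 to 52.5 ± 0.833 CPM (log2 fold change 0.71 ± 0.08, adjusted p = 1.79e-06), and the binding proteins IGFBP3 (1.34 ± 0.34) and IGFBP2 (1.16 ± 0.39) rose from under 1 CPM. IGFBP3 was not a DEG without H196_Co replicate 1 (log2 fold change 1.05 with an adjusted p of 0.0655). IGFBP2 was not a DEG without H196_Mo replicate 1 or 3 or H196_Co replicate 1 or 2 or 3 (log2 fold change 0.84 to 1.22 with an adjusted p of 0.0799 to 0.178). Among the EGF, HGF and PDGF ligands and receptors, 1 of 12 tested genes was upregulated and 0 downregulated (median log2 fold change of the list -0.02), the gene being PDGFA, with 2, 10 and 10 counts in H196_Mo and 16, 19 and 21 in H196_Co. PDGFA was not a DEG without H196_Mo replicate 1 or H196_Co replicate 3 (log2 fold change 0.98 to 1.3 with an adjusted p of 0.0595 to 0.0713).

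Of the circadian clock genes, 3 of 14 tested genes were upregulated and 0 downregulated (median log2 fold change of the list 0.31). BHLHE40 (DEC1) and BHLHE41 (DEC2), repressors that respond to hypoxia as well, rose from 15.2 ± 1.55 to 30.7 ± 1.89 CPM (log2 fold change 1.01 ± 0.09, adjusted p = 1.46e-07) and from 8.21 ± 0.363 to 20.7 ± 1.93 CPM (log2 fold change 1.34 ± 0.10, adjusted p = 1.31e-08). NR1D1 (REV-ERB alpha), a repressor of the core clock, rose from 6.07 ± 0.979 to 14.1 ± 2.0 CPM (log2 fold change 1.22 ± 0.13, adjusted p = 1.71e-06). CLOCK was lower inside the fold limit (-0.30 ± 0.09).

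The immune lists addressed whether transcripts of STING signaling and its targets differed in the tumor cells. These lists are short, and with 3.26% of all genes upregulated and 0.601% downregulated, 0 DEGs is near the share of all genes. Of the 7 tested genes of the cGAS-STING pathway 0 were DEGs by edgeR, 0 passed an adjusted p under 0.05 in any direction, and their log2 fold changes ran from -0.55 to 0.29 (4 at an unadjusted p under 0.05, and 0 called by DESeq2 or by limma on FPKM). STING1 had 10.4, 12.8 and 12.8 CPM in H196_Mo and 10.8, 9.37 and 8.75 CPM in H196_Co (log2 fold change -0.31 ± 0.12, adjusted p = 0.0653). TBK1 was at -0.08 ± 0.09 (95% interval -0.26 to 0.10) and IRF3 at 0.16 ± 0.08 (0.01 to 0.32), which says nothing of their phosphorylation. The targets were at the limit of detection. IFNB1 had 0, 0 and 1 counts in H196_Mo and 0, 0 and 0 in H196_Co. CCL5 had 3, 7 and 6 counts in H196_Mo and 4, 8 and 9 in H196_Co. HLA-DRA had 0, 0 and 0 counts in H196_Mo and 1, 1 and 1 in H196_Co, so that differences in these 3 genes were not detectable at this depth. IFNA1, CXCL10 and CXCL11 were not analysed here.

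Of the interferon-stimulated genes, 0 of 18 tested genes were upregulated and 1 downregulated (median log2 fold change of the list -0.04), the gene being the scarce IFIT2 (from 3.52 ± 0.576 to 2.24 ± 0.168 CPM; log2 fold change -0.65 ± 0.18, adjusted p = 0.0172). IFIT2 was not a DEG without H196_Mo replicate 3 or H196_Co replicate 3 (log2 fold change -0.60 to -0.51 with an adjusted p of 0.0687 to 0.109). Of 16 MHC genes 0 were DEGs, with 4 higher and 0 lower at an adjusted p under 0.05 and log2 fold changes from -0.27 to 0.29 (6 at an unadjusted p under 0.05, and 0 called by DESeq2 or by limma on FPKM). Reads of the class I genes are shared among near-identical copies, so their split is uncertain. Of the checkpoint ligands, 1 of 8 tested genes was upregulated and 0 downregulated, VSIR (log2 fold change 1.09 ± 0.34, adjusted p = 0.0312) at about 1 CPM, and CD274 (PD-L1) was at 0.37 ± 0.22. VSIR was not a DEG without H196_Mo replicate 1 or 2 or H196_Co replicate 1 or 3 (log2 fold change 0.87 to 1.07 with an adjusted p of 0.0783 to 0.122). Of the NF-kB and inflammatory genes, 0 of 12 tested genes were upregulated and 1 downregulated (median log2 fold change of the list -0.07): CCL2, a chemokine for monocytes, had 15, 13 and 17 counts in H196_Mo and 2, 4 and 5 in H196_Co (log2 fold change -1.93 ± 0.42, adjusted p = 0.00297), and DESeq2 gave it no adjusted p.

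Genes of cell division and growth did not pass both limits. Of all genes tested 3.26% were upregulated and 0.601% downregulated, so 0 in each of these lists is near the share of all genes. Of 25 replication genes, 24 mitosis genes and 20 ribosome biogenesis genes, 0 were DEGs by edgeR, with 2, 1 and 2 higher and 0, 0 and 1 lower at an adjusted p under 0.05 and medians of -0.05, -0.04 and 0.04. At an unadjusted p under 0.05 they were 6, 7 and 6, and DESeq2 and limma on log2(FPKM + 1) called 0 in each list. Of the CDK inhibitors and p53 targets, 1 of 18 tested genes was upregulated and 1 downregulated (median log2 fold change of the list -0.10). CDKN2B, an inhibitor of CDK4 and CDK6, fell from 99.0 ± 2.77 to 63.0 ± 1.91 CPM (log2 fold change -0.65 ± 0.07, adjusted p = 1.27e-06), and CDKN1C (p57) was at 1.0 ± 0.27. CDKN1C was not a DEG without H196_Mo replicate 1 (log2 fold change 0.77 with an adjusted p of 0.0678).

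The Hallmark sets named in the table's annotation gave a wider frame. Hypoxia held 57 of 165 tested genes upregulated (34.5%) and Glycolysis 35 of 176 (19.9%), with 24 genes in both, and neither held a downregulated DEG. The 2 sets together covered 68 of the 417 upregulated genes, so that 349 lay outside them, and 260 were in no Hallmark set. Next came Angiogenesis (4 of 22, 18.2%), Epithelial Mesenchymal Transition (21 of 147, 14.3%) and TNFA Signaling via NFKB (22 of 162, 13.6%), of whose upregulated genes 2, 13 and 12 were not in the Hypoxia set. MTORC1 Signaling (23 of 193) and Cholesterol Homeostasis (5 of 69) had members on both sides, with 7 and 5 downregulated, and in the former 18 of the 23 upregulated genes were also in Hypoxia. Androgen Response had 6 downregulated against 4 upregulated, and the interferon alpha and gamma sets 5 downregulated each against 1 and 2 upregulated. Oxidative Phosphorylation (2 of 198), E2F Targets (1 of 200) and G2M Checkpoint (1 of 197) lay below the share of all genes.

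The same co-culture was sequenced from the side of the fibroblasts, which allows a test of whether a response differed between the partners. The 6 H196 libraries were fitted with the 3 MRC5_Mo and 3 MRC5_coH196 libraries over genes in both tables, and the log2 fold change of MRC5_coH196 against MRC5_Mo was subtracted from that of H196_Co against H196_Mo. It differed from 0 at an adjusted p under 0.05 in 6757 of 13531 genes (49.9%), so a difference at a single gene is common. All 10 largest rises of H196 were also higher in MRC5_coH196 (each with an adjusted p of 3.94e-15 or less), where 4546 of 13531 genes (33.6%) were higher at an adjusted p under 0.05. The rise was smaller in H196 for 7 of the 10. NDRG1 was at 1.73 in H196 and 4.92 in MRC5 cells (difference -3.19 ± 0.15, adjusted p = 1.25e-14), and ANGPTL4 at 1.98 in H196 and 4.90 in MRC5 cells (difference -2.92 ± 0.12, adjusted p = 8.34e-16). It was larger in H196 for GPI, at 1.76 in H196 and 1.07 in MRC5 cells (difference 0.68 ± 0.08, adjusted p = 4.76e-08), and for PPP1R3C, and did not pass the test for STC2 (difference 0.13 ± 0.09, adjusted p = 0.245).

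Of the 10 largest falls, 9 could be compared, since NWD1 was not in the joint fit. SCD fell in H196 and rose in MRC5 cells, -0.84 in H196 and 0.41 in MRC5 cells (difference -1.25 ± 0.09, adjusted p = 1.55e-11). The same held for ABCA1 (-0.82 in H196 and 1.26 in MRC5 cells; adjusted p = 1.3e-13), HDAC9 (-0.81 in H196 and 1.46 in MRC5 cells; adjusted p = 5.12e-14) and DACT1 (-1.03 in H196 and 1.03 in MRC5 cells; adjusted p = 1.76e-12). MEF2C was at -0.93 in H196 and 0.30 in MRC5 cells, where it did not pass the test (adjusted p = 0.0558). SREBF1 and JADE2 were lower in both partners and more so in H196 (differences -0.73 ± 0.12 and -0.59 ± 0.09). DSEL was lower in both by amounts that did not differ beyond their error (difference 0.15 ± 0.11, adjusted p = 0.264), and ABCD2 was at about 0.1 CPM or less in MRC5 cells, too low for a comparison.

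**Figure D5:**
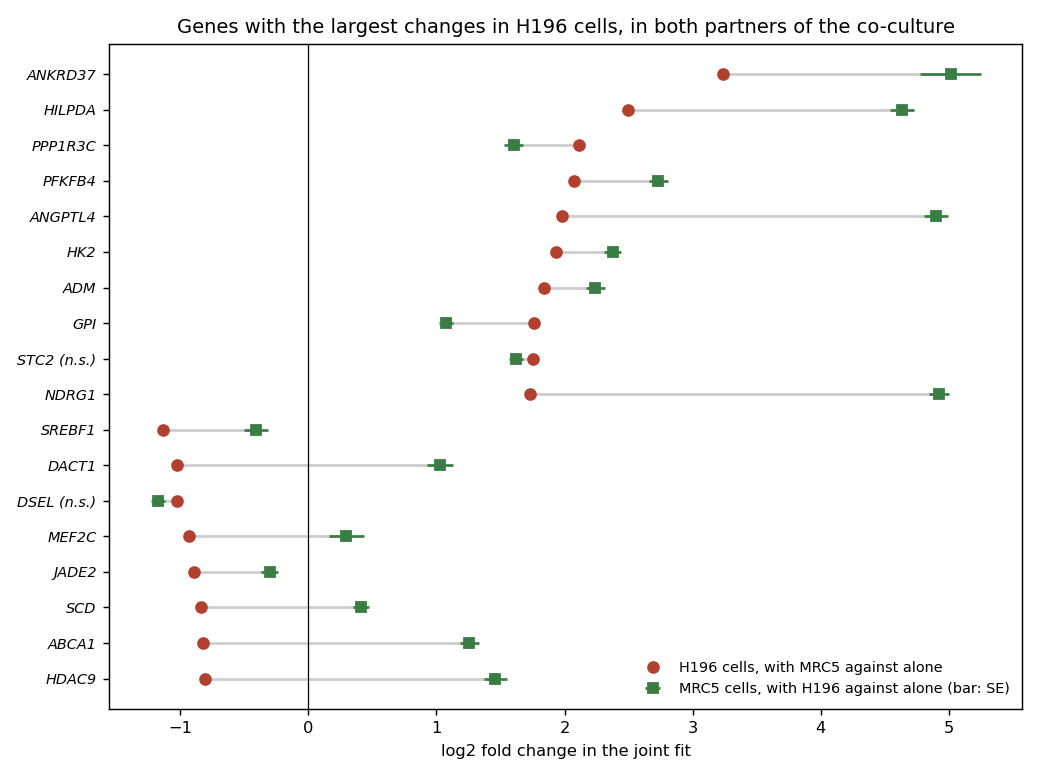
Log2 fold change upon co-culture in H196 cells (red circles) and in MRC5 cells (green squares, bar: SE) for the 10 largest rises and 8 of the 10 largest falls of H196, from the joint fit of 12 libraries; n.s. marks genes whose responses did not differ at an adjusted p under 0.05. The rises point the same way in both lines, with the widest gaps in NDRG1, ANGPTL4 and HILPDA, while SCD, ABCA1, HDAC9 and DACT1 lie on opposite sides of 0, as does MEF2C, whose rise in MRC5 cells did not pass the test.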

How the data were processed

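Poly(A) RNA of H196 and MRC5 cells was sequenced, and the authors used SOAPnuke to filter reads, HISAT for the GRCh38.p13 genome and Bowtie2 for gene sequences. The submitters' processing notes also name HISAT2 2.1.0, Bowtie2 2.3.4.3 and RSEM 1.3.1. The deposited expected counts are estimated reads per gene, of which 92.1% were whole in the H196 table, since reads that match several genes are divided among them. The deposited FPKM values are, by the authors, scaled to gene length and library size and served only for levels between genes and for 2 alternatives. Columns of the authors' own comparisons (fold changes and p-values) and 12 further columns of per-sample values in the H196 table were not used.

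Expected counts were rounded to whole numbers and tested in R 4.3.3 with edgeR 4.0.16: TMM factors, filterByExpr, and the quasi-likelihood test on the 6 H196 libraries, without a block. Totals were 16073597 to 17358349 counts per library, and 3 counts correspond to 0.173 to 0.187 CPM. No pair of replicates agreed within counting noise (chi-square per degree of freedom 2.37 to 10.8), so none was counted as 1 library. The standard error of a log2 fold change was taken from the F statistic. The limits for a DEG were 0.05 for the adjusted p (Benjamini-Hochberg) and 0.58 for the absolute log2 fold change. With 3 libraries per group an exact permutation test of a single gene cannot go below p = 0.1, so tests rest on the spread shared across genes. Intervals of ratios cover counting error only. The difference from the MRC5 response was tested in 1 edgeR fit over 12 libraries.

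The members and the 44 gene lists were chosen with earlier results of these data known. Named genes were the 10 largest rises and falls among DEGs of at least 10 CPM with non-overlapping groups, the 5 largest gains and losses in CPM, DEGs with at most 3 counts in every library of a group, members of the lists described, and genes the study names for its tumor cells. On simulated counts for 12806 genes, edgeR called 100 of 100 genes changed 2-fold and 100 of 100 changed 4-fold, with 0 false calls. The changed genes were not taken from the scarce genes, and each gene was given the spread usual for its level. The simulation thus did not test calls of scarce genes, of genes near the fold limit or of genes with an unusual spread. Alternatives were DESeq2 1.42.0 size factors and Wald test, limma 3.58.1 with pseudocounts of 1 and 0.1 on the log2 FPKM scale, looser or stricter filters and thresholds, a replicate block, and each library left out. Promoters were taken from RefSeq (GRCh38.p14) by symbol. Some members of the lists are counted but not reported here one by one.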

Additional observations from a re-analysis of the deposited data

Results flagged for a closer look

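For 16 of the 20 genes with the largest rises and falls, the log2 fold change in H196_Co differed from that in MRC5_coH196 by the test of the difference in the joint edgeR fit (adjusted p under 0.05, as in 49.9% of all genes in that fit). Among the rises the difference, H196 minus MRC5, was -3.19 for NDRG1, -2.92 for ANGPTL4, -2.14 for HILPDA, -1.77 for ANKRD37, -0.65 for PFKFB4, -0.44 for HK2 and -0.40 for ADM, all of which rose less in H196 cells. It was 0.68 for GPI and 0.51 for PPP1R3C, which rose more in H196 cells. Among the falls it was -2.27 for HDAC9, -2.07 for ABCA1, -2.06 for DACT1, -1.25 for SCD and -1.23 for MEF2C, the first 4 of which rose in MRC5 cells, and -0.73 for SREBF1 and -0.59 for JADE2, which were lower in both. The MRC5 log2 fold changes rest on the same 3 MRC5_Mo libraries for every gene. The difference did not pass the test for STC2 (0.13, adjusted p = 0.245), DSEL (0.15, adjusted p = 0.264) and ABCD2 (-0.17, adjusted p = 0.976), the last with at most 0.1 CPM in MRC5 cells, and NWD1 was not in the joint fit.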

How the results depend on the processing

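The count of DEGs moved most with limma at a pseudocount of 1 and with the fold limit. The value was 494 (417 higher, 77 lower) and became 195 (149 and 46) with limma on log2(FPKM + 1), 2538 (1542 and 996) with no fold limit and 147 (132 and 15) with an absolute log2 fold change above 1. The last 2 follow from the limit. The first differs only in the pseudocount from limma on log2(FPKM + 0.1), which gave 417. Why limma called fewer genes than edgeR was not tested. It stayed within 1.5 times under DESeq2 size factors (481), the DESeq2 Wald test (367, with 249 adjusted p-values not given), limma on log2(FPKM + 0.1) (417), no filter on low counts (514), at least 10 counts in every library (455) and an adjusted p under 0.01 (370). Without each library in turn it was 424 to 517, with 350 to 431 higher and 68 to 98 lower, and the count of genes whose responses differed between H196 and MRC5 cells was 6175 to 6863. Replicate numbers did not pair the libraries: same-numbered H196_Co and H196_Mo libraries had correlations of -0.05, -0.15 and 0.03 of their deviations from the group means, and the highest correlation was 0.20, of H196_Co replicate 2 with H196_Mo replicate 1. The replicate block gave 471 DEGs (395 and 76) and 6538 genes in the comparison of responses. Of 108 named or listed DEGs with alternatives, 81 kept their call under every alternative that gave a value (9 had none with at least 10 counts in every library, and 5 of these, CCL2, IGFBP2, KISS1R, PDGFA and VSIR, no adjusted p from DESeq2), 19 lost it without 1 library and 24 under another setting, all 24 of them with limma on log2(FPKM + 1), among them ATF3, FOSL1, KDM7A, MMP15, NR4A3, PPP1R3D, RIMKLA and TRIB3, which kept it without each library. The direction turned in 4 cases: SLC16A1, from 0.04 to -0.039 and -0.040 with limma on log2(FPKM + 1) and log2(FPKM + 0.1), and the ABCD2 difference between responses, from -0.17 to 0.34 without MRC5_Mo replicate 2 and 2.70 without MRC5_coH196 replicate 1, over a range of -0.90 to 2.70 without 1 library; none of these passed a test. At this depth, genes under 1 CPM rest on fewer than about 20 counts per library.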

Other observations

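The share of genes called depended on their level. Of the genes with a mean under 1 CPM, 10% were upregulated DEGs, against 8.41% from 1 to 10 CPM, 1.43% from 10 to 100 CPM, 2.2% from 100 to 1000 CPM and 6.25% of the 96 genes above 1000 CPM, which were 6 genes; the downregulated shares were 1.47%, 1.37%, 0.349%, 0.45% and 0%.

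A few scarce genes outside every list had large fold changes and were chosen here after their values were seen. RORA, a nuclear receptor of the circadian clock, rose from 0.520 ± 0.173 to 2.52 ± 0.263 CPM (mean ± SD, n = 3 per group; log2 fold change 2.26 ± 0.27, edgeR adjusted p = 6.17e-06). APLN, the precursor of the vascular peptide apelin, rose from 0.842 ± 0.348 to 3.02 ± 0.737 CPM (log2 fold change 1.83 ± 0.27, edgeR adjusted p = 7.18e-05). NXPH3, a neurexin-binding secreted protein, rose from 0.347 ± 0.0664 to 1.31 ± 0.236 CPM (log2 fold change 1.90 ± 0.34, edgeR adjusted p = 5.57e-04). The lowest log2 fold change of any DEG was that of JMJD7-PLA2G4B, a read-through transcript that overlaps both of its parent genes, at -2.54 ± 0.37 (edgeR adjusted p = 6.70e-05), and its reads cannot be told from those of its parents with certainty.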
